A study of Mus musculus with 2 samples.

Results

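Chromatin regulators are the enzymes and scaffolds that move nucleosomes and that write, read or erase marks on histones and DNA. SWI/SNF and CHD complexes use ATP to shift nucleosomes, Polycomb complexes hold developmental genes silent, and DNA methyltransferases and TET dioxygenases add and oxidise methyl groups on cytosine. Many of these genes are known for their roles in neural progenitors and for neurodevelopmental disorders when 1 copy is lost. The 41 genes described here were listed by name, and all 41 were found among the 22367 protein-coding genes of the GENCODE vM1 annotation. Hdac4 is annotated under 2 identifiers there, and the one with the longer coding sequence was used.

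The data are a list of 6629 peaks of p300, a histone acetyltransferase and co-activator that marks active enhancers. Chromatin was prepared from formaldehyde-fixed neocortex (dorsal cerebral wall) of embryos of the Swiss Webster strain at E14.5, with the hem, hippocampus and choroid plexus cut away, and precipitated with the anti-p300 antibody C-20. There was 1 p300 library and 1 input library of the same tissue, with no replicate, no mutant and no treatment, so no comparison between samples can be made. Input signal was not analysed here, and the list gives no score or read count, so the depth behind a single peak is unknown. The authors had removed peaks that touched exons or lay less than 2.5 kb from a start site, so binding at the promoters of these genes cannot be read from it.

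Each gene was given a window, its gene body together with 250 kb on either side of its start site (of the longest coding transcript), and a peak was counted if its midpoint lay inside. A window of 500 kb would hold 1.30 peaks if the peaks were spread evenly over the 2.56 Gb of assembled mm9 sequence. At 38 of the 41 genes the window had this length. As a check of the tissue, peaks were counted in the same windows at 9 genes of the neocortical projection neuron lineage. Their median was 7 peaks (range 2 to 11, the lowest Emx2), and 5 of them passed the test used below. The median was 2 at 5 subpallial genes (range 0 to 3) and 0 at 5 genes of liver, muscle and pancreas (range 0 to 5, the highest Myog).

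Most chromatin regulator genes had a p300 peak in their window, but few had many. Chd2 held 11 peaks, Adnp 6, and Arid1a and Smarca2 5 each, and for Ezh2, Ankrd11 and Arid1b the number was 4. Chd7 and Sin3a had 3 peaks, 8 genes had 2, 16 genes had 1 and 8 genes had 0. The median was 1 peak per gene, against a median of 0 over all protein-coding genes. Each count was tested for an excess over even placement with a one-sided exact binomial test, adjusted by Benjamini-Hochberg over all 22367 coding genes, at a threshold of 0.05. Of the 41 genes 1 passed, Chd2, while 2.09% of all protein-coding genes did. At an unadjusted p under 0.05 there were 6 members, or 14.6%, against 8.33% of all genes. Peaks tend to cluster along the genome, but the test takes them as independent. Its p-values therefore measure departure from even placement only and are too small for clustered peaks.

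**Figure D1:**
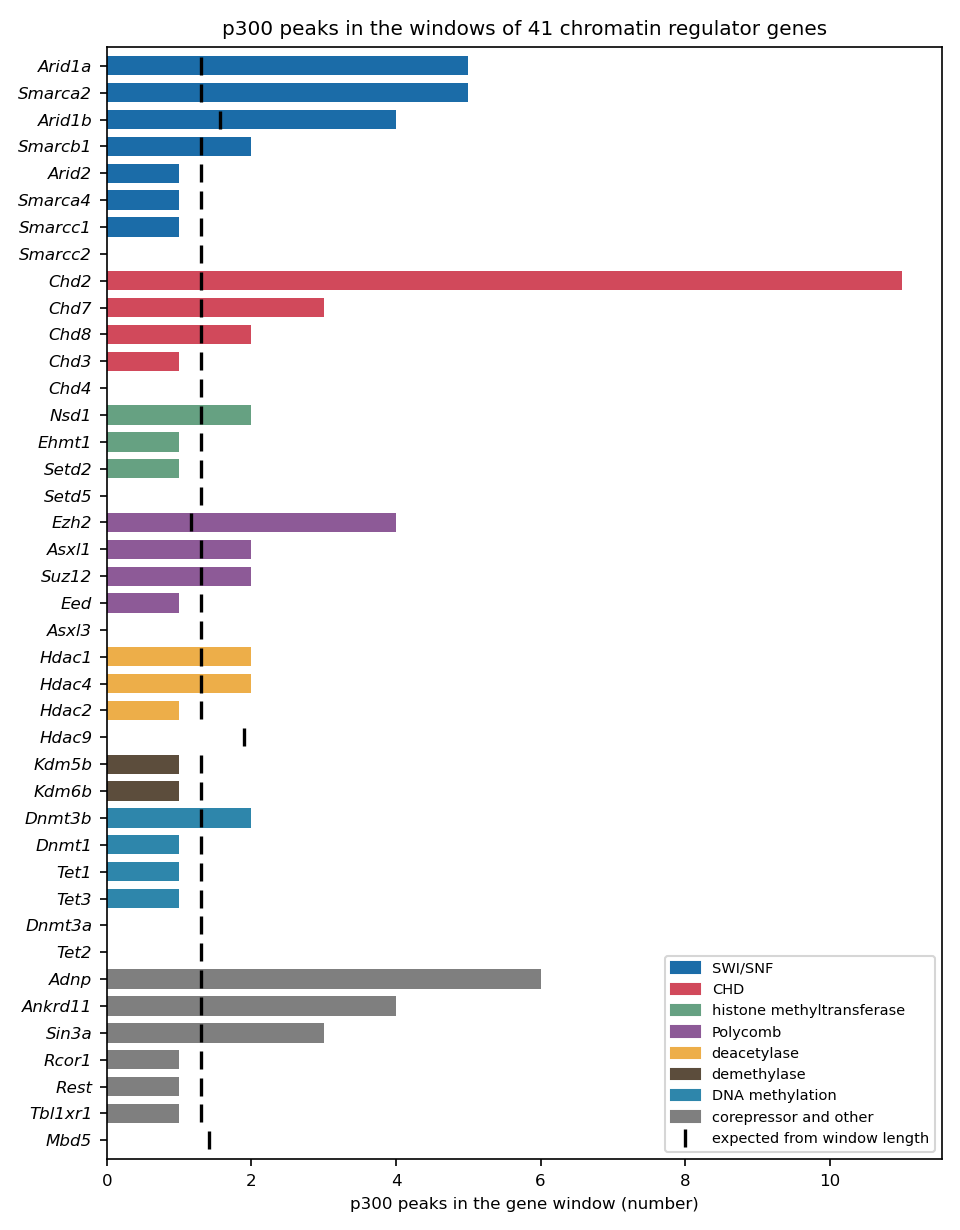
Number of p300 peaks in the window of each of the 41 genes (bars, coloured by role), with the number expected from the assembled length of the window (black ticks). Chd2 stands at 11 peaks, no other member exceeds 6, and the 8 genes without a bar had no peak.

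At least 1 peak lay in the window of 33 members, or 80.5%, against 48.7% of all protein-coding genes. Among 119 other chromatin genes the share was 53.8%. Both lists were drawn up with earlier results of these data known. The value for all coding genes depended on the genes counted, and the further sets given next were chosen after the data were seen. It was 49.7% among the 18666 coding genes with given names, 53.3% once olfactory and vomeronasal receptor genes were also left out, and 56.7% on average among genes whose body was within 20% of the length of each member's. For 3 or more peaks the shares were 22% of members (9 genes) and 15% of all protein-coding genes. The nearest p300 peak was a median of 138 kb from the start site of a member (quartiles 58.8 and 207 kb) and 262 kb from that of a protein-coding gene (quartiles 104 and 609 kb). Members and all coding genes had the same median number of coding start sites in the window, 9. Windows of neighbouring genes overlap and share peaks, so genes are not independent and no test was made of the list as a whole.

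**Figure D2:**
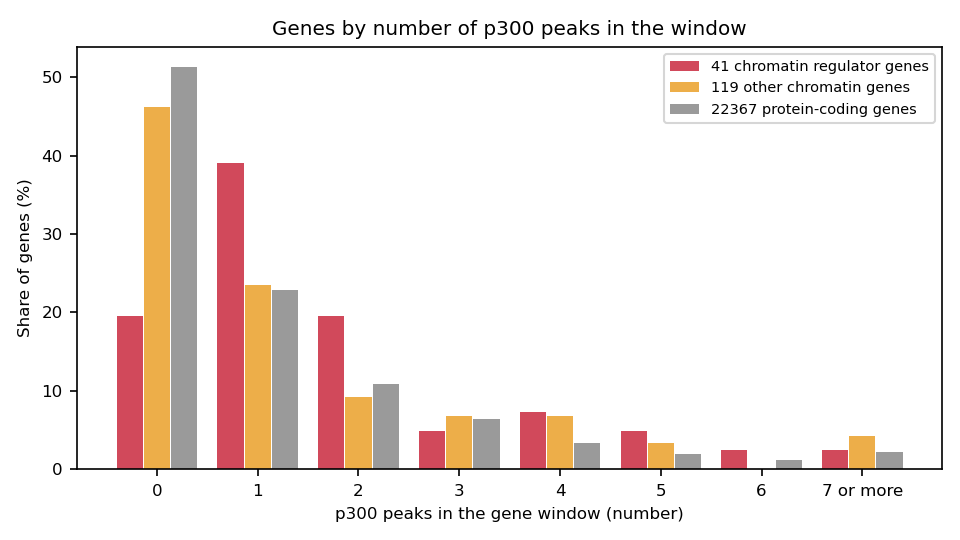
Share of genes (percent) by number of p300 peaks in the window, for the 41 members, 119 other chromatin genes and all 22367 protein-coding genes. Genes with 0 peaks make up 19.5% of the members, 46.2% of the other chromatin genes and 51.3% of all coding genes, and the members exceed both at 1 and 2 peaks.

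The central 120 bases of a peak at each of 5 genes show the kind of sequence counted. Only peaks inside the gene, or for which it had the nearest coding start site, were taken, and of these the widest. The 5 genes are not all of those that could be shown in this way. Capitals mark matches to the words searched below, on either strand, and all sequences are the mm9 plus strand, 5′ to 3′. They come from peak 5584 at Chd2 (chr7:80762748-80762867), 4544 at Arid1a (chr4:133285762-133285881), 3090 at Smarca2 (chr19:26844481-26844600), 4128 at Chd7 (chr4:8726570-8726689) and 201 at Hdac4 (chr1:94121025-94121144).
Chd2: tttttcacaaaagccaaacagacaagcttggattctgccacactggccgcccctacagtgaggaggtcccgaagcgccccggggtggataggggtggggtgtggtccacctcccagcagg
Arid1a: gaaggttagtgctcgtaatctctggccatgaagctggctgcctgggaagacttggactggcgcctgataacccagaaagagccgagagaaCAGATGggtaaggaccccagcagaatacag
Smarca2: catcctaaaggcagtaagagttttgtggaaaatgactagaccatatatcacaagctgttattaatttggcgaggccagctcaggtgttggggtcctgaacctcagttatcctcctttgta
Chd7: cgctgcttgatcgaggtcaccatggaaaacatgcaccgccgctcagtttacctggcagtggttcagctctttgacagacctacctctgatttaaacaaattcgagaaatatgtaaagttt
Hdac4: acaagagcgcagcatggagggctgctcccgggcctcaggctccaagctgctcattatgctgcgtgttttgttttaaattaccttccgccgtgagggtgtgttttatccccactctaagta
In the 5 windows shown 1 motif word was found, the E-box at Arid1a.

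Chd2 encodes a nucleosome-remodelling ATPase, and loss of 1 copy in humans causes a developmental epilepsy. The gene (ENSMUSG00000078671) spans 80571577 to 80686632 of chromosome 7 and is read from the minus strand. Its 11 peaks were 8.49 times the 1.30 expected (one-sided exact binomial test, p = 1.32e-07, adjusted p = 4.53e-05). As many peaks were found in the windows of 0.287% of the 21944 protein-coding genes of like span, meaning a window within 20% of the same length. None of the 11 peaks lay in the 115 kb gene body. Upstream, 7 peaks occupied the intergenic interval between Chd2 and Fam174b. They lay 16.8, 42.7, 76.2, 96.0, 103, 106 and 175 kb from the Chd2 start site and spanned 159 kb from the first base to the last. The first 4 of them were nearer to Chd2 than to any other coding start site, and the other 3 were nearer to Fam174b.

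The peak 76.2 kb upstream, number 5584, covered 3390 bp of chromosome 7 from 80761113 to 80764502 and was the 19th widest of all 6629 peaks. Of the 11 peaks, 8 matched or exceeded the median width of 1017 bp. The nearest one, number 5582, ran from 80702473 to 80704379 and had a GC content of 59.1%. On the downstream side 4 peaks lay 119 to 187 kb from the start, all nearer to Rgma, the gene of a repulsive guidance molecule for axons. Rgma and Fam174b had 8 peaks each in windows of their own, 7 of them shared with Chd2, and passed the same test (adjusted p = 0.00481 by the exact test for both). Which of these genes the peaks act on was not measured. With peaks under 5 kb apart merged, Chd2 kept 9 peaks (fold 7.54), and within 100 kb of the start site it had 4 and no longer passed (fold 7.18, adjusted p = 0.155, exact test).

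**Figure D3:**
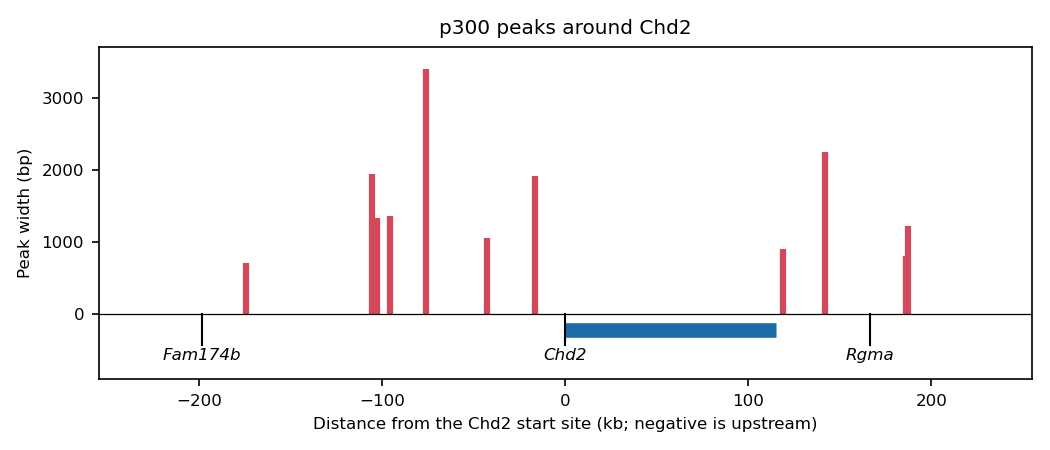
Width in bp (red bars) of the 11 p300 peaks by their distance from the Chd2 start site in kb, with the Chd2 body in blue and the start sites of its coding neighbours marked. A further coding gene, A830073O21Rik, starts beside Fam174b and is not drawn. No peak lies over the body, and the tallest bar is the 3390 bp peak 76.2 kb upstream.

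The other CHD genes had 0 to 3 peaks each, where 1.30 would be expected in each window. With Chd2, the CHD genes had 17 peaks where 6.48 would be expected, and Chd2 held 11 of these. Chd7, a remodeller mutated in CHARGE syndrome, had 3 peaks (fold 2.32, adjusted p = 0.971, exact test). One lay in an intron 108 kb into the gene, at 8725849 to 8727411 on chromosome 4, another 185 kb downstream of its start and the third 114 kb upstream, inside Rab2a. Chd8, often mutated in autism, had 2 peaks 211 and 227 kb downstream of its start, 1 of them inside Zfp219. Chd3 and Chd4 encode alternative ATPases of the NuRD corepressor. Chd3 had 1 peak, and Chd4 had none nearer than 1490 kb.

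Among the SWI/SNF subunits, 7 of 8 genes had a peak, against 48.7% of all coding genes. They had 19 peaks in all, where 10.6 would be expected from length. None passed the test, which 2.09% of all coding genes did. Of 18 further SWI/SNF subunit genes, 11 had a peak, with at most 4 peaks each, and 0 passed. The alternative DNA-binding subunits Arid1a and Arid1b both had intronic peaks. Arid1a (chromosome 4, 133234923 to 133312684, minus strand) had 5 peaks, 3.86 times the expected number (adjusted p = 0.209, one-sided exact binomial test). Peak 4544 covered 1458 bp of an Arid1a intron from 133285093 to 133286550, 23.7 kb from the start site. The widest in the window, number 4545, covered 1902 bp some 60.2 kb upstream and was 67.2% GC. Its window was crowded, with 14 coding start sites, and Arid1a was the nearest for 1 of the 5 peaks.

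Arid1b (chromosome 17, 4994332 to 5347656, plus strand) had the only coding start site in its window. Of its 4 peaks (fold 2.56, adjusted p = 0.872, exact test), 3 were intronic, 12.2, 89.4 and 292 kb from the start site, and the fourth lay upstream. These were the most peaks in the body of any member. Among genes with a body of like length (within 20%), 20% had as many in the body. The intronic peak at 292 kb was nearer to the start of 5730437N04Rik, outside the window (153 kb). The coordinates of the intronic peaks are 5006689 to 5007861, 5083960 to 5084943 and 5286139 to 5287384.

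Smarca2, which encodes the Brm ATPase, also had the only coding start site in its window, on chromosome 19. It had 5 peaks (fold 3.86, adjusted p = 0.209, exact test). There were 3 upstream, 138, 221 and 223 kb away, 1 in an intron at 26843825 to 26845257, and 1 beyond the end of the gene. The intronic peak and the one beyond the gene were nearer to the start of Gm815, outside the window (116 and 40.6 kb). The peaks at 221 and 223 kb were separate calls less than 1 kb apart. Smarca4, the gene of the alternative ATPase Brg1, had 1 peak, 177 kb away in Kank2. Of the paired scaffold subunits, Smarcc1 had 1 peak and Smarcc2 none nearer than 1540 kb. Arid2, a PBAF subunit, had 1 and the core subunit gene Smarcb1 had 2. The difference between paralogs was not tested.

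The 4 genes of histone methyltransferases and SET-domain proteins had 4 peaks in all, where 5.18 would be expected. Nsd1, which methylates histone H3 and is mutated in Sotos syndrome, had 2 peaks 19.5 and 38.1 kb upstream, the farther one nearer to Fgfr4 (19.0 kb). Ehmt1 and Setd2 had 1 each, over 200 kb from the start, and Setd5 had none nearer than 779 kb. No peak lay in the body of any of them.

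Polycomb genes and their partners had 9 peaks where 6.35 would be expected. Ezh2, the catalytic subunit of PRC2, had 4 (fold 3.43, adjusted p = 0.515, exact test). All 4 lay downstream of its start, 174 to 229 kb away, in intergenic sequence on the far side of the Cul1 start site, and were nearer to Cul1, a ubiquitin ligase gene. Cul1 had 7 peaks in its own window and passed the test (adjusted p = 0.0193, exact). The peak of Ezh2's window nearest to it was the narrowest of any member, 391 bp at 47371285 to 47371675 on chromosome 6. Of the other PRC2 core subunits, Suz12 had 2 peaks, 72.9 and 84.3 kb upstream, both nearer to Utp6 (42.2 and 53.6 kb). Eed had 1, 58.8 kb upstream, and its own start site was the nearest. Asxl1 had 2, both of which were also counted for Dnmt3b. Asxl3 had none nearer than 1050 kb.

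Among the deacetylases, Hdac4 and Hdac1 had 2 peaks each and Hdac2 1, for which Marcks had the nearest start site. The Hdac1 peaks were nearest to the start sites of Tmem39b and Khdrbs1. Hdac4, a class IIa enzyme that shuttles between nucleus and cytoplasm, had 1 peak 76.1 kb upstream and 1 in an intron. The intronic one, number 200 at 93935098 to 93935812 on chromosome 1, was the only member peak with a full Nfi dimer, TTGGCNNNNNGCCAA, which 24 of all 6629 peaks (0.362%) held. It was picked out after its sequence was seen, and 60 bases around the dimer (chr1:93935490-93935549, plus strand), with the dimer in capitals, read:
Hdac4 intron: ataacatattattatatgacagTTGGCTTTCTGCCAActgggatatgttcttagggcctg
Its paralog Hdac9 spans 481 kb and had the widest window of any member, 731 kb, and held none. By length 1.89 peaks would be expected, the mean of like-span genes was 2.24, and the nearest peak lay 479 kb upstream. A deficit was not tested.

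The closest peaks to a start site were those of the histone demethylase genes. Kdm5b had 1 peak, 963 bp at 136453009 to 136453971 on chromosome 1, 3.26 kb upstream of its start. Kdm6b, whose product removes the methyl mark that Polycomb places, had 1 peak 4.70 kb upstream, 2400 bp wide at 69230672 to 69233071 on chromosome 11. It was counted for Chd3 too, 49.0 kb away. Both peaks were rich in GC, at 63.1% and 57.2%, and lay just beyond the 2.5 kb within which the authors had removed peaks.

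DNA methylation genes had the fewest for their number, 5 peaks over 6 genes where 7.77 would be expected. The mean of coding genes with windows of like length was 1.10 peaks, below the 1.30 per window used here. Still, 4 of the 6 genes had a peak, against 48.7% of all coding genes, and a deficit was not tested. Dnmt3b had 2, and Dnmt1, the maintenance methyltransferase, Tet1 and Tet3 1 each. None of these was nearest to a member, and none lay in a gene body of one. Dnmt3a, a de novo methyltransferase, had no peak nearer than 568 kb. Tet2 had none in its window, with the nearest 266 kb upstream, and 1 when the window was set from its outermost annotated start site.

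The last 7 genes encode corepressors and other regulators. Adnp, a homeodomain and zinc-finger protein mutated in autism, had 6 peaks, 4.63 times the expected number, which did not pass (adjusted p = 0.0697, one-sided exact binomial test). In the windows of like-span genes, 3.07% had as many. All 6 were intergenic, at 41.5, 46.9, 137 and 234 kb upstream and at 92.0 and 183 kb downstream of its start, and for each another coding start site was nearer. The nearest, number 3702, ran from 168073304 to 168074914 on chromosome 2 and was the widest, at 1611 bp. With peaks and window lengths counted only outside vM1 exons and start sites, which approximates the authors' filter, Adnp passed (fold 5.63, adjusted p = 0.033, exact test).

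Ankrd11, which recruits deacetylases, had 4 peaks (fold 3.09, adjusted p = 0.515, exact test) and Sin3a 3 (fold 2.32, adjusted p = 0.971, exact test), and for neither gene was it the nearest start site to any. At Ankrd11, 3 of the peaks lay together in Acsf3, 235 to 238 kb away. These 3 were shared with Cdh15 and Gm16378, which had 10 peaks each and passed (adjusted p = 0.000192 by the exact test for both). The other coding genes that start in the Ankrd11 window had 1 peak each. At Sin3a, the scaffold of a deacetylase complex, the 3 peaks lay 184 to 246 kb away. Of these, 2 were shared with Odf3l1 and Cspg4, which had 9 peaks each and passed (adjusted p = 0.00105 by the exact test for both). Snx33, Imp3 and Snupn also passed, and the other coding neighbours of Sin3a did not. Tbl1xr1, a subunit of the NCoR complex, had 1 peak, 2097 bp wide in the intergenic sequence 141 kb upstream, and its own start site was the nearest. Rcor1, which encodes the corepressor CoREST, had 1 peak, and so had Rest, the repressor of neuronal genes outside neurons. The Rest peak overlapped an exon of the vM1 annotation, 0.459 kb from the start of Gm15831. Mbd5 had none where 1.42 would be expected from the length of its window, and a deficit was not tested. Its body of 373 kb is the second longest of the members. The nearest peak was 473 kb away, and genes with a body of like length had a mean of 1.56 peaks inside it.

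**Figure D4:**
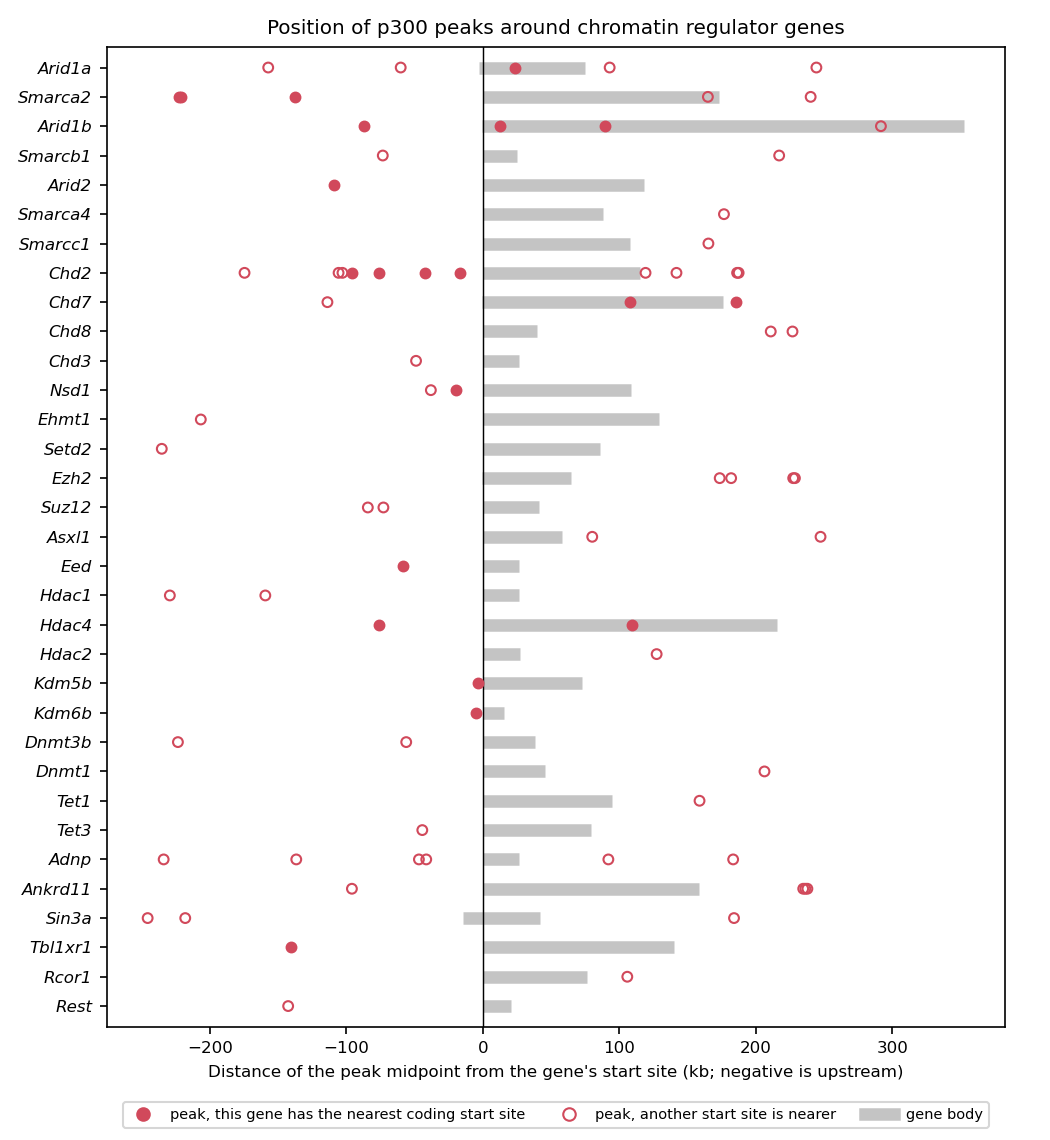
Midpoints of p300 peaks (circles) by distance in kb from the start site of each of the 33 members with a peak, with the gene body in grey. Filled circles are peaks for which the member has the nearest coding start site, 21 of the 77 drawn, and few circles lie on a grey bar.

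Counted once for each gene, the windows held 77 peaks, of which 73 were distinct, since 4 lay in the windows of a pair of members. The member was the nearest coding gene by start site for 21 of the 77 (27.3%, exact Clopper-Pearson 95% interval 17.7 to 38.6%), and among all coding genes this share was 21.8%. These 21 peaks belonged to 12 genes, and 21 further genes had peaks but were nearest to none. Upstream of the start site lay 41 of the 77, and 12 (15.6%, interval 8.32 to 25.6%) were within 50 kb of it. Intervals here cover counting error only.

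Gene bodies held few of the peaks. Of the 77, 7 lay in the body of the member (9.09%, exact interval 3.73 to 17.8%), all in introns of Arid1a, Arid1b, Smarca2, Chd7 and Hdac4. From their length alone the 41 bodies would hold 11.1 peaks, and genes of like body length had 13.3 by their means. At least 1 peak lay in the body of 12.2% of members and 6.57% of all coding genes. Members are long genes, with a median body of 77.8 kb against 15.4 kb, and among genes of like body length the share was 17.8%. Of the 73 distinct peaks, 48 were intergenic (65.8%, interval 53.7 to 76.5%), against 54.5% of all p300 peaks.

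Beside all p300 peaks, those of these windows were of ordinary width but richer in GC. Peaks in the windows of other coding genes were not compared, so the difference is not shown to be particular to these genes. Their median width was 1040 bp (quartiles 909 and 1356 bp) and that of all peaks 1017 bp (quartiles 860 and 1260 bp). The median GC content was 50.6% (quartiles 45.6 and 54.0%) against 45.2% (quartiles 40.6 and 50%), and 58 of the 73 peaks lay above the median of all peaks.

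**Figure D5:**
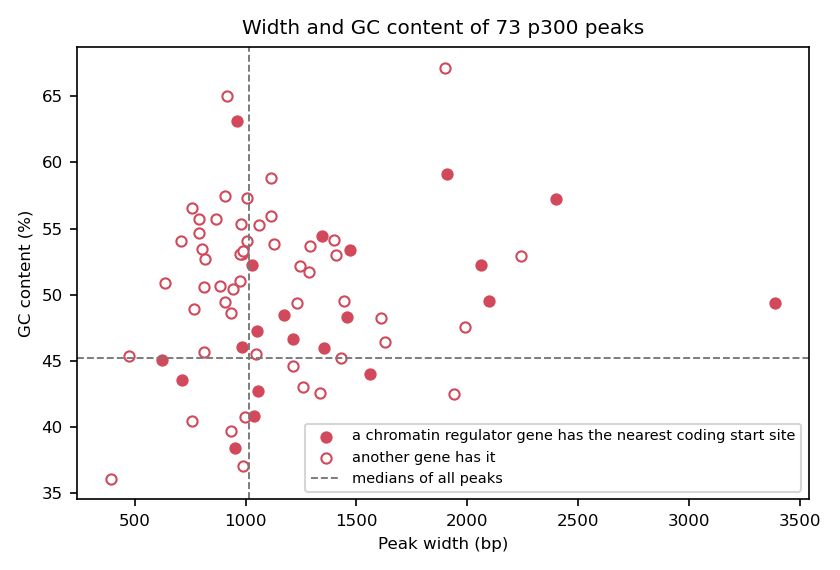
GC content (percent) against width (bp) of the 73 distinct p300 peaks, filled where a member has the nearest coding start site. Dashed lines give the medians of all 6629 peaks, 1017 bp and 45.2%, and most points lie above the horizontal one.

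Short words bound by neocortical factors were searched on both strands of each whole peak. The homeodomain word TAATTA occurred in 23 of 73 peaks (31.5%, exact interval 21.1 to 43.4%) and in 46.7% of all p300 peaks. This word holds no G or C, and the part of base composition in the difference was not tested. The E-box CAGATG of proneural bHLH factors was found in 67.1% (interval 55.1 to 77.7%) against 74.8%, and the E-box CAGCTG in 56.2% against 56.3%. The Sox word AACAAAG occurred in 28.8% against 29.9% and the octamer ATGCAAAT in 13.7% against 12.9%. The shorter Nfi dimer TGGCNNNNNGCCA, which any full dimer also contains, was in 7 peaks (9.59%, interval 3.94 to 18.8%), against 6.68% of all peaks. None of the words was found in 5 of the 73.

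How far the window reached changed which members passed. With 500 kb on either side of the start site, 6 of the 41 genes passed the exact test (14.6%), against 4.09% of all coding genes. They were Chd2 and Chd7 with 13 peaks each, Adnp and Ankrd11 with 11, Sin3a with 10 and Suz12 with 9 (adjusted p = 0.0354, exact test). With 100 kb, 0 passed, against 0.885% of all coding genes, and 4 members had an unadjusted p under 0.05 by the exact binomial test. Counted outside exons and start sites, 2 members passed, Chd2 and Adnp, against 2.78% of all coding genes. Chd2 was the 1 member to pass with outermost start sites (2.06% of all coding genes), with merged peaks (1.14%), with wide peaks alone (1.52%), with the peak density of its own chromosome (2.05%) and with any overlap counted (2.1%).

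Other chromatin genes gave a further list, of whose 126 symbols 119 were found in the annotation. A peak lay in the window of 64 of them (53.8%), against 48.7% of all coding genes, the median was 1 and 5 passed the test (4.20%, against 2.09% of all coding genes). Among these were Rcor2, a paralog of Rcor1, with 9 peaks (adjusted p = 0.00105, exact test), and the remodeller gene Chd9 with 8, of which 5 were in its body (adjusted p = 0.00481, exact test). Jarid2, a PRC2 partner, had 5 peaks, 4 of them in its body (adjusted p = 0.209, exact test).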

How the data were processed

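Reads of 1 p300 library were mapped by the authors to mm9 with ELAND, kept if unique with 2 or fewer mismatches, and peaks were called against 1 input library with MACS, for which the submitters' processing notes give version 1.4. The authors then dropped calls that touched an exon, lay close to a start site (2.5 kb) or came from doubtful alignments. The deposited list holds chromosome, start, end and name on mm9 and no score. It was set against the NCBIM37 sequence, which is mm9, and GENCODE vM1. Expected numbers are the 6629 peaks times the window's share of assembled bases, with a one-sided exact binomial test for every coding gene. Analysis used Python 3.11.15, numpy 2.4.6, pandas 2.3.3, scipy 1.17.1 and matplotlib 3.10.9. The test was checked on simulated sets of evenly placed peaks, some with peaks planted in gene windows. This check does not cover the clustering of real peaks. Full values were given for members that passed and the 10 with the highest fold among those with 3 or more peaks (9 in all). The members and lists were chosen with earlier results of these data known. Alternatives changed reach, start site, peaks, overlap, space and like-span genes. The sequence of 1 peak that the rule selects, and some genes of the further list that passed, are not reported here.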

Additional observations from a re-analysis of the deposited data

How the results depend on the processing

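Chd2 passed the exact binomial test in 7 of 8 alternatives. Within 100 kb of the start site 0 passed (4 at an unadjusted p under 0.05), within 500 kb 6, and over bases outside exons and start sites 2, Chd2 and Adnp. The wider window takes in more neighbouring loci by construction. The median count per member fell from 1 to 0 within 100 kb and with narrow peaks left out, which leaves 3324 peaks. The share of like-span genes with at least as many peaks had a median of 48.3% over members, 48.8% within 500 kb, 53.2% among genes of like body length, 49.2% without model or clone names, and 100% within 100 kb and with wide peaks alone, where the median member had no peak. Ezh2 and Sin3a fell from a fold above 1 to 0 within 100 kb, and Sin3a also to 0 with wide peaks, since their peaks lie farther out or are narrower than the median. The share of peaks in gene bodies stayed between 9.09% and 12.5%. No paired analysis was possible because there is 1 library of each kind. A count of 0 in a 500 kb window has a probability of 0.274 under even placement, so a single member of this window length without a peak cannot be told from it, and 7 peaks were needed to pass.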
